A study of Mus musculus with 6 samples.

Results

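The extracellular matrix genes described here are 41 genes for non-collagen matrix proteins of mouse liver, covering elastic fibres and their microfibrils, small and large proteoglycans, matricellular proteins, adhesive glycoproteins and the basement membrane. They were chosen by name and function, with earlier results of these data known, and all 41 were among the 24421 gene symbols of the count table. Of the 41, 40 had enough reads to be tested. Liver RNA was sequenced from 6 samples of male C57BL/6 mice aged 4 months, 3 carrying a knockout of Sesn3 (Sesn3 KO, here KO) and 3 wild type (WT). The KO and WT mice all ate the same diet for 4 weeks. It supplied 40% of energy as fat, 40% as carbohydrate and 20% as protein, with 1.25% cholesterol and 0.5% of the bile salt sodium cholate. The labels do not state which part of Sesn3 the knockout allele removes, nor whether each sample was 1 animal, so the p-values cover the spread between samples and no more.

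Elastic fibres consist of an elastin core laid down on microfibrils of fibrillin, and fibulins, microfibril-associated glycoproteins and lysyl oxidases help to assemble and crosslink them. Latent TGF-beta binding proteins sit on the same microfibrils. Small leucine-rich proteoglycans coat and space collagen fibrils, matricellular proteins modulate how cells attach and signal without being structural themselves, and nidogens join laminin to type IV collagen in basement membranes. In liver most of this matrix is made by hepatic stellate cells and portal fibroblasts, the basement membrane also by endothelial cells, whereas hepatocytes secrete fibronectin and vitronectin into plasma.

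Sesn3, which encodes the stress-inducible protein sestrin 3, was at 0.761, 0.695 and 0.689 CPM in KO and 9.00, 11.6 and 10.4 CPM in WT, 14.4-fold lower in KO (log2 -3.84 ± 0.22 SE, adjusted p = 0.00183). Levels are in CPM, the library-size normalised read count after TMM scaling, and values of single libraries follow in the order of replicates 1 to 3. Coordinates are those of GENCODE release 21 on GRCm38. Fold changes are KO over WT, on the log2 scale with their SE where so marked. A gene is said to have risen or fallen at an edgeR adjusted p under 0.05 over all 12945 genes tested. Libraries held 18882220 to 24098512 counts. KO replicate 2 had the highest KO value for 25 of the 40 tested matrix genes and KO replicate 3 the lowest for 25. WT replicate 1 was the highest WT library for 21 and WT replicate 2 the lowest for 23.

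Of the 40 tested matrix genes, 10 rose in KO livers and none fell. Whole liver holds several cell types, and more or fewer cells of a type cannot be told apart here from more or less RNA per cell. The risers were Fbln5 and Mfap2 of the elastic fibre, the latent TGF-beta binding proteins Ltbp2 and Ltbp3, the proteoglycans Lum and Dcn, the matricellular genes Postn and Sparcl1, and Nid1 and Lamb1 of the basement membrane. The matrix genes that rose were 25% of those tested and 0 fell, against 3.36% that rose and 3.58% that fell over all genes (6.94% in either direction). The genes were listed with earlier results known, so these shares are a description. At an unadjusted edgeR p under 0.05, 23 matrix genes were higher and 1 lower. Over all genes 25.8% had such a p in either direction, and that share stands beside every unadjusted count given below. DESeq2 called 21 higher and 1 lower (Vtn), and limma-voom 11 higher and none lower. Over all genes DESeq2 called 924 higher and 1043 lower, limma-voom 424 and 443, and edgeR 435 and 463. The shares of 3.36% and 3.58% are those of edgeR, so the DESeq2 counts of any list have a larger background. The median log2 fold change was 0.87 over the 40 genes and 0.00 over all genes tested, and 36 of the 40 values were above 0. The lowest KO library was above the highest WT library for 26 of the 40, against 16.9% of all genes. The highest KO library was below the lowest WT library for 2 (Vtn and Efemp1), against 16.6% of all genes.

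Leaving out 1 library changed the count. Only 3 matrix genes rose when KO replicate 1, KO replicate 2 or WT replicate 3 was left out, and 6 when KO replicate 3 was. The count was 14 after leaving out WT replicate 1 and 8 after leaving out WT replicate 2. Postn, Fbln5 and Sparcl1 passed in all 6 of these fits. Among all genes the risers numbered 144, 48 and 130 with KO replicates 1, 2 and 3 left out in turn, 132 with WT replicate 3 left out, and 435 with every library.

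**Figure D1:**
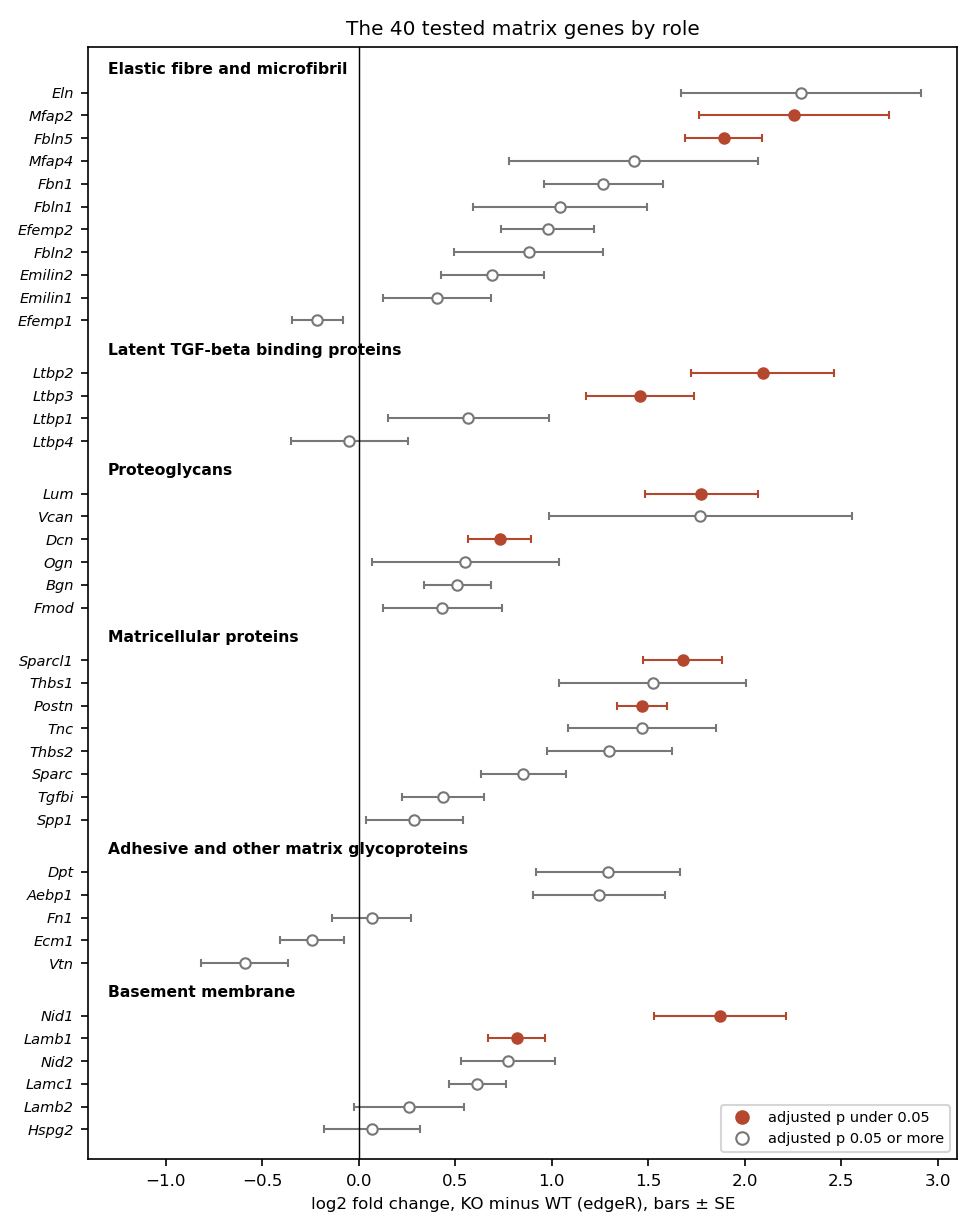
Log2 fold change, KO minus WT, of the 40 tested matrix genes, grouped by role, with points at the edgeR estimate and bars of ± 1 SE. The 10 genes with filled points passed the test, all to the right of 0, and Vtn, Ecm1, Efemp1 and Ltbp4 lie to the left of 0.

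Markers of several liver cell types were followed beside the matrix genes. Summed CPM of 11 stellate cell and myofibroblast markers other than Ecm1 was 244 to 334 CPM in KO and 187 to 202 CPM in WT, without overlap. Of the 11, only Pdgfra, a receptor of fibroblasts and stellate cells, passed the edgeR test (log2 1.17 ± 0.16 SE, adjusted p = 0.0118). Its adjusted p reached 0.0669 when KO replicate 2 or WT replicate 3 was left out. DESeq2 called 6 stellate markers higher, limma-voom 1, and 7 were higher at an unadjusted edgeR p under 0.05. The vitamin A enzyme gene Lrat, which marks stellate cells, was at 34.3 ± 8.18 CPM in KO and 28.6 ± 4.87 CPM in WT (SD, n = 3 each) with an adjusted p of 0.45. Macrophage markers summed to 2042 to 2529 CPM in KO and 875 to 1663 CPM in WT, also without overlap. The largest part of the macrophage sum was Cd5l, with means of 1107 CPM in KO and 548 CPM in WT, which did not pass (edgeR adjusted p = 0.0826). Of the 10, 4 rose (40%, against 3.36% of all genes), with 7 higher by DESeq2 and 5 by limma-voom. The 4 were Clec4f, Vsig4, Trem2 and Cd9, and each lost its call when KO replicate 1 or KO replicate 2 was left out. Markers of portal fibroblasts summed to 20.3 to 32.9 CPM in KO and 7.38 to 23.0 CPM in WT, overlapping. EdgeR and limma-voom called none of them, DESeq2 called Entpd2 higher, and 2 genes of that list were higher at an unadjusted edgeR p under 0.05. Clec3b had 17 reads and Gli1 20 in KO replicate 2, and at most 4 in any other library, and neither was tested. Of the 5 tested genes of that list 4 had a log2 fold change above 0, and Thy1 was below 0 (log2 -0.998). Thy1 was at 3.55, 2.62 and 2.20 CPM in KO and 10.4, 1.69 and 4.59 CPM in WT, overlapping (edgeR adjusted p = 0.334). Sinusoidal endothelial markers summed to 166 to 379 CPM in KO and 326 to 443 CPM in WT, overlapping. Of these 7 markers, 6 had a log2 fold change below 0. At an unadjusted edgeR p under 0.05, 2 of them were lower and 1 higher. Vascular endothelial markers summed to 73.6 to 145 CPM in KO and 134 to 169 CPM in WT, also overlapping. All 6 had a log2 fold change below 0, with 0 at an unadjusted edgeR p under 0.05. EdgeR, DESeq2 and limma-voom called none of the endothelial markers. Cholangiocyte markers summed to 27.5 to 30.1 CPM in KO and 19.9 to 24.6 CPM in WT, without overlap. The sums for mesothelial cells were 2.62 to 3.02 CPM in KO and 4.76 to 7.48 CPM in WT, without overlap and lower in KO. Those for vascular smooth muscle were 49.5 to 52.9 CPM in KO and 55.3 to 67.3 CPM in WT, also without overlap and lower. Most of the smooth muscle sum was Mylk, with means of 37.6 CPM in KO and 52.8 CPM in WT. Myh11 and Smtn went the other way, higher in every KO library than in every WT library (log2 1.17 and 0.62). EdgeR and limma-voom called none of the cholangiocyte, mesothelial and smooth muscle markers, and DESeq2 called Msln and Mylk lower. At an unadjusted edgeR p under 0.05, 2 mesothelial markers were lower, and 1 smooth muscle marker was higher and 1 lower. Hepatocyte markers summed to 89909.9 to 109969 CPM in KO and 86255 to 138516 CPM in WT, overlapping, most of it Alb, the albumin gene. Of the 7 hepatocyte markers 6 had a log2 fold change below 0. Ttr, Apoa1 and Asgr1 were lower in every KO library than in every WT library, 1.95-fold, 1.63-fold and 1.44-fold by the fit. That held for 16.6% of all genes, and the remaining hepatocyte markers overlapped. EdgeR and limma-voom called none of the 7, 3 were lower at an unadjusted edgeR p under 0.05, and DESeq2 called these 3 lower. The stellate, macrophage and cholangiocyte sums were thus higher in every KO library than in every WT library, as 26 matrix genes were. The part of these shifts in the matrix values was not tested.

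**Figure D2:**
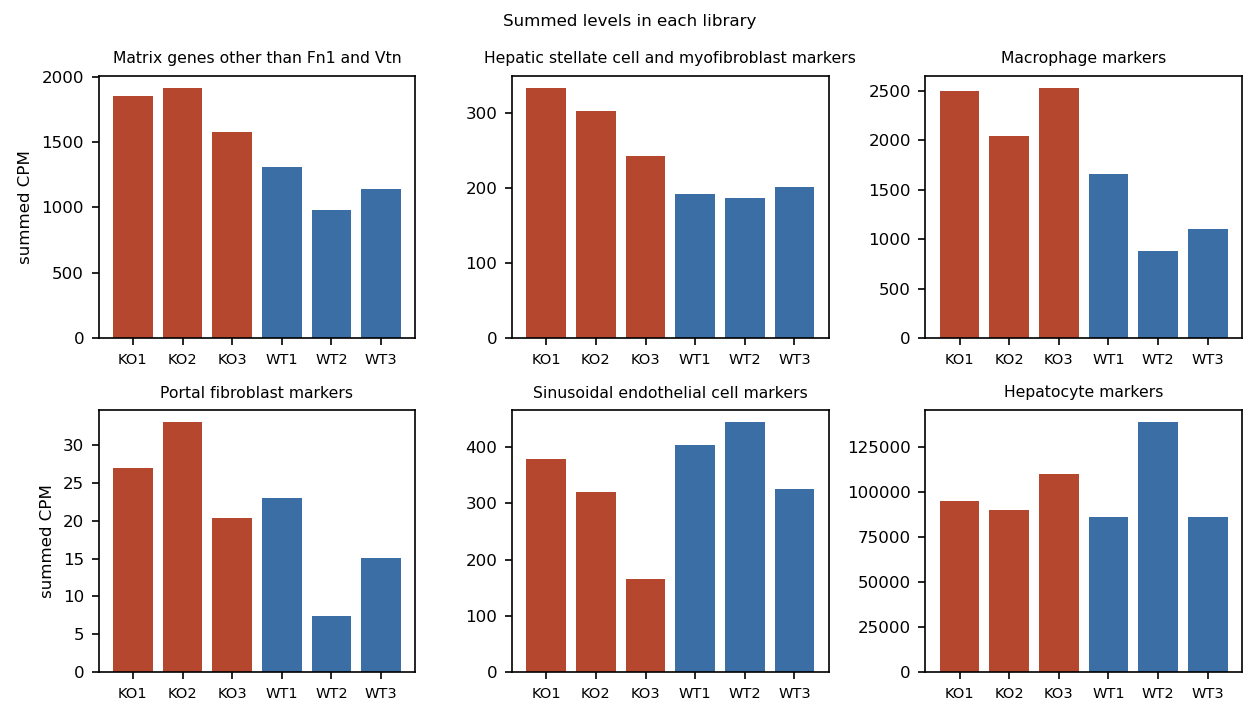
Summed CPM in each library, KO bars left of WT bars, for the matrix genes other than Fn1 and Vtn and for 5 marker lists, each axis starting at 0. The matrix sum runs from 1575 to 1913 CPM in KO and from 981 to 1306 CPM in WT, and only the stellate and macrophage panels show a like separation.

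In the elastic fibre group 2 of 11 tested genes rose (18.2%, against 3.36% of all genes). The groups by role are small, and their shares are a description. Fbln5 (chr12:101746565-101819055), fibulin-5, which binds elastin and guides its deposition on microfibrils, was at 17.6, 21.0 and 16.2 CPM in KO and 4.81, 5.99 and 3.95 CPM in WT. Every KO library was above every WT library, by a fold of 3.71 between the groups (log2 1.89 ± 0.20 SE, adjusted p = 0.00496). Mfap2 (chr4:141010418-141015984), a microfibril-associated glycoprotein that binds fibrillin, was scarce, at 1.14, 1.70 and 0.862 CPM in KO and 0.314, 0.291 and 0.160 CPM in WT. The WT libraries held only 6, 5 and 3 reads of it, and its groups did not overlap (log2 2.25 ± 0.49 SE, adjusted p = 0.04). Mfap2 lost its call in each of the 6 fits that left out a library, with an adjusted p reaching 0.155, and limma-voom gave it 0.0562. Eln, the elastin gene itself, was at 5.24, 22.0 and 6.20 CPM in KO and 3.30, 1.86 and 1.66 CPM in WT. The KO values did not overlap with those of WT, but KO replicate 2 was well above the other KO libraries, and the difference did not pass (log2 2.29 ± 0.62 SE, adjusted p = 0.0714). Fbn1, fibrillin-1, the backbone of the microfibril, was at 19.6, 19.3 and 12.1 CPM in KO and 9.73, 4.53 and 6.89 CPM in WT, with no overlap between the groups (log2 1.27 ± 0.31 SE, adjusted p = 0.0531).

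The other elastic fibre genes did not pass the edgeR test, while DESeq2 called 5 of the 11 higher and limma-voom 2. Efemp2, fibulin-4, which is needed for elastin crosslinking, was at 13.3 ± 1.17 CPM in KO and 6.74 ± 2.15 CPM in WT (SD, n = 3 each), without overlap, and had an adjusted p of 0.0538. Its relative Efemp1, fibulin-3, was at 10.4, 10.8 and 10.7 CPM in KO and 11.4, 12.6 and 13.0 CPM in WT, so that every KO library lay below every WT library (log2 -0.21 ± 0.13 SE, adjusted p = 0.352). With library size only the log2 fold change of Efemp1 was -0.01, close to 0. Mfap4, another microfibril-associated protein, was at 1.61, 3.90 and 2.11 CPM in KO and 1.57, 1.05 and 0.214 CPM in WT, where KO replicate 1 was barely above WT replicate 1 (adjusted p = 0.218). Emilin1, Emilin2, Fbln1 and Fbln2, glycoproteins found along elastic fibres and microfibrils, had log2 fold changes of 0.41, 0.69, 1.04 and 0.88 with overlapping groups and adjusted p from 0.157 to 0.41. Of the exon bases of Efemp2 4.57% overlap the gene Mus81, and of those of Mfap4 4.63% overlap Mapk7, where reads cannot be assigned with certainty. Mfap5 was not tested: it had 11 reads in KO replicate 2, 0 in the other KO libraries, and 0, 3 and 1 in WT replicates 1 to 3. Of the 11 tested elastic fibre genes, 6 were thus higher in every KO library than in every WT library, against 16.9% of all genes. Efemp1 was the 1 gene lower in every KO library, against 16.6% of all genes.

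Of the 4 latent TGF-beta binding proteins, 2 rose (50%, against 3.36% of all genes). Ltbp3 (chr19:5740904-5758532), which holds latent TGF-beta in the matrix, was at 8.75, 12.2 and 8.96 CPM in KO and 4.76, 2.44 and 3.69 CPM in WT, 2.74-fold higher in KO (log2 1.46 ± 0.28 SE, adjusted p = 0.0275). Ltbp2 (chr12:84783212-84876532), which binds microfibrils but not latent TGF-beta, was at 2.87, 5.33 and 2.76 CPM in KO and 0.837, 0.756 and 0.961 CPM in WT, 4.27-fold higher (log2 2.09 ± 0.37 SE, adjusted p = 0.0224). Neither overlapped between the groups. Both lost their call when any KO library or WT replicate 3 was left out, with adjusted p reaching 0.0915 for Ltbp2 and 0.119 for Ltbp3. Of the Ltbp2 exon bases, 9.34% overlap D030025P21Rik on the other strand, which had no reads in any library. Ltbp1 was at 7.71 ± 3.74 CPM in KO and 5.20 ± 1.89 CPM in WT (SD, n = 3 each) and overlapped (adjusted p = 0.435). Ltbp4 was at 49.0 ± 15.3 CPM in KO and 50.7 ± 16.6 CPM in WT (SD, n = 3 each) and overlapped too (adjusted p = 0.938). The sign of Ltbp4 depended on the scaling, at log2 -0.05 with TMM factors, 0.01 with upper-quartile factors and 0.20 when only library size was used.

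Among the 6 proteoglycan core proteins, Lum and Dcn rose (33.3%, against 3.36% of all genes). Lum (chr10:97565128-97572703), lumican, which organises collagen fibrils, was at 42.6, 48.8 and 33.8 CPM in KO and 16.6, 7.38 and 12.6 CPM in WT. All KO libraries were above all WT libraries, 3.42-fold on average (log2 1.78 ± 0.29 SE, adjusted p = 0.0191). Its call was lost when KO replicate 1, KO replicate 2 or WT replicate 3 was left out, with an adjusted p reaching 0.087. Dcn (chr10:97479609-97518143), decorin, which binds collagen and TGF-beta, was at 282, 297 and 257 CPM in KO and 197, 138 and 169 CPM in WT, a fold of 1.66 (log2 0.73 ± 0.16 SE, adjusted p = 0.0413). Of the 6 fits that left out a library, Dcn passed in the one that left out WT replicate 1 alone, and its adjusted p reached 0.157 in the others. Bgn, biglycan, close to decorin in sequence and structure, was at 261, 299 and 244 CPM in KO and 229.7, 160.3 and 174 CPM in WT, apart by a narrow margin and not called (log2 0.51 ± 0.17 SE, adjusted p = 0.118). Vcan, versican, a large chondroitin sulfate proteoglycan, was at 4.27, 1.89 and 1.38 CPM in KO and 1.10, 0.0581 and 1.01 CPM in WT. WT replicate 2 held a single read of it and the SE was wide (log2 1.77 ± 0.79 SE, adjusted p = 0.212). The related Fmod and Ogn, fibromodulin and osteoglycin, were low, Fmod apart between the groups and Ogn overlapping, with group means between 1.01 and 2.58 CPM, and did not pass (adjusted p = 0.416 for Fmod and 0.514 for Ogn).

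Of 8 matricellular genes, 2 rose (25%, against 3.36% of all genes), and 7 were higher in every KO library than in every WT library, which held for 16.9% of all genes. DESeq2 called 6 of the 8 higher and limma-voom 3. Postn (chr3:54361109-54391037), periostin, which binds integrins and collagen and is induced in fibrosis, was at 27.1, 27.2 and 28.2 CPM in KO and 10.9, 10.1 and 8.87 CPM in WT. The KO values lay within 27.1 to 28.2 CPM, the tightest relative spread in KO of the 10 risers, and the groups did not overlap (log2 1.47 ± 0.13 SE, adjusted p = 0.00421). Sparcl1 (chr5:104079111-104113733), hevin, a relative of SPARC found in vessel walls and stroma, was at 10.7, 15.0 and 10.9 CPM in KO and 3.77, 4.19 and 3.47 CPM in WT, again with no overlap (log2 1.68 ± 0.20 SE, adjusted p = 0.00728). Sparc, osteonectin, a collagen-binding protein, was at 252, 237 and 168 CPM in KO and 148, 93.9 and 121 CPM in WT, with no overlap but no call (log2 0.85 ± 0.22 SE, adjusted p = 0.0591).

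The thrombospondins and tenascin-C did not pass with edgeR, while DESeq2 called all 3 higher. Thbs1, which can activate latent TGF-beta, was at 13.0, 14.7 and 5.39 CPM in KO and 4.97, 1.80 and 4.70 CPM in WT (log2 1.52 ± 0.48 SE, adjusted p = 0.104). KO replicate 3 was the lowest KO library for Thbs1, only just above WT replicate 1. Thbs2, its relative, was at 8.96, 13.0 and 10.1 CPM in KO and 6.07, 2.50 and 4.43 CPM in WT (log2 1.30 ± 0.32 SE, adjusted p = 0.055). Tnc, tenascin-C, a matrix protein of healing tissue, was at 7.02, 8.41 and 3.19 CPM in KO and 2.46, 1.80 and 2.46 CPM in WT (log2 1.47 ± 0.38 SE, adjusted p = 0.061). All 3 genes were apart between the groups, and Thbs2 and Tnc were among 7 matrix genes with an adjusted p from 0.05 to under 0.07, beside Fbn1, Efemp2, Sparc, Aebp1 and Lamc1. Spp1, osteopontin, a cytokine-like adhesive protein of macrophages and bile duct cells, was at 90.0 ± 11.4 CPM in KO and 73.7 ± 24.2 CPM in WT (SD, n = 3 each) and overlapped (adjusted p = 0.513). Tgfbi, a collagen-binding adhesive protein induced by TGF-beta, was at 126 ± 6.33 CPM in KO and 93.1 ± 26.9 CPM in WT (SD, n = 3 each), apart, with an adjusted p of 0.242. Its WT replicate 2, at 63.8 CPM, was below the other WT libraries.

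The adhesive and other glycoproteins held no gene that passed with edgeR, and at an unadjusted p under 0.05 there were 2 higher and 1 lower. By DESeq2, Aebp1 and Dpt were higher and Vtn lower, and limma-voom called none. Vtn, vitronectin, a plasma adhesive protein secreted by hepatocytes, was at 1780.1, 1788 and 2011 CPM in KO and 2554, 3564 and 2287 CPM in WT. Every KO library was below every WT library (log2 -0.59 ± 0.22 SE, adjusted p = 0.151), and WT replicate 2, which also had the highest sum of hepatocyte markers, was the highest. Of the 7 hepatocyte markers, Ttr, Apoa1 and Asgr1 were likewise lower in every KO library, as were 16.6% of all genes. Alb, Apob, Cps1 and Hnf4a overlapped between the groups, with Alb slightly higher in KO (log2 0.09). The part of the hepatocyte shifts in the Vtn difference was not tested. Fn1, fibronectin, whose plasma form comes from hepatocytes, was at 1545, 1728 and 1975 CPM in KO and 1823, 1826 and 1362 CPM in WT and overlapped (log2 0.07 ± 0.20 SE, adjusted p = 0.865). Ecm1, a secreted glycoprotein, was at 126 ± 18.9 CPM in KO and 149 ± 22.1 CPM in WT (SD, n = 3 each) (adjusted p = 0.396). The remaining pair is made by stromal cells. Aebp1, a collagen-binding protein of fibroblasts, was at 5.41, 8.72 and 6.20 CPM in KO and 3.45, 1.63 and 3.47 CPM in WT (log2 1.24 ± 0.34 SE, adjusted p = 0.0693). Dpt, dermatopontin, a decorin-binding protein, was at 6.72, 14.1 and 5.56 CPM in KO and 3.19, 3.31 and 4.27 CPM in WT (log2 1.29 ± 0.37 SE, adjusted p = 0.0822). KO replicate 2 was the highest KO library for both.

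In the basement membrane group 2 of 6 genes rose (33.3%, against 3.36% of all genes), and DESeq2 called 4 higher. Nid1 (chr13:13437551-13512269), nidogen-1, the link between laminin and type IV collagen, was at 220.4, 159 and 157 CPM in KO and 64.2, 25.6 and 56.6 CPM in WT. The lowest KO library was well above the highest WT library, and the group means differed 3.66-fold (log2 1.87 ± 0.34 SE, adjusted p = 0.0261). Lamb1 (chr12:31265234-31329644), the laminin beta-1 chain, was at 22.4, 20.7 and 17.7 CPM in KO and 11.9, 10.3 and 12.2 CPM in WT, 1.76-fold higher with narrow spread in both groups (log2 0.82 ± 0.15 SE, adjusted p = 0.0226). Nid1 lost its call when any KO library or WT replicate 3 was left out, with an adjusted p reaching 0.0912. Lamb1 lost it when KO replicate 1, KO replicate 2 or WT replicate 3 was left out, reaching 0.101. Lamc1, the laminin gamma-1 chain that pairs with Lamb1, was at 45.6 ± 7.14 CPM in KO and 29.8 ± 3.33 CPM in WT (SD, n = 3 each), apart, with an adjusted p of 0.0515. Nid2 was at 10.1 ± 1.71 CPM in KO and 5.89 ± 1.66 CPM in WT (SD, n = 3 each), also apart (adjusted p = 0.0969). Lamb2, another laminin beta chain, was at 7.86 ± 1.46 CPM in KO and 6.56 ± 2.17 CPM in WT (SD, n = 3 each) and overlapped (adjusted p = 0.605). Hspg2, the heparan sulfate proteoglycan perlecan, was at 43.5 ± 13.9 CPM in KO and 41.5 ± 5.83 CPM in WT (SD, n = 3 each) and overlapped as well (adjusted p = 0.888).

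**Figure D3:**
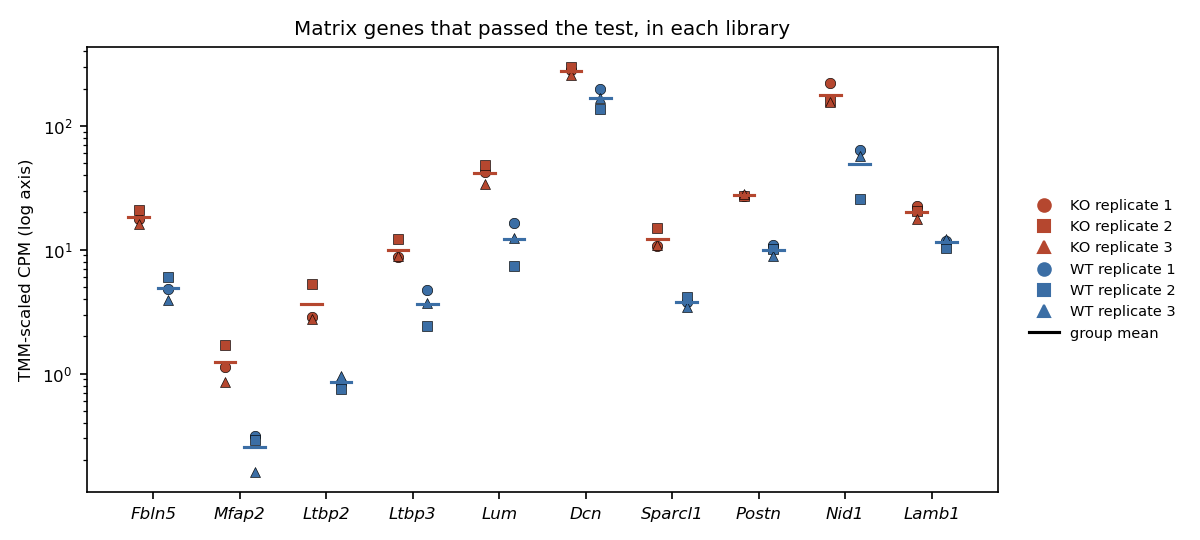
TMM-scaled CPM on a log axis for the 10 matrix genes that passed the test, with 1 point per library, KO points left of WT points, and bars at the group means. No gene shows overlap between KO and WT, Postn lies between 27.1 and 28.2 CPM in KO and between 8.87 and 10.9 CPM in WT, and KO replicate 2 stands high for Ltbp2 and Mfap2.

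Levels per length set the order among the genes. Vtn led, at 916 CPM per kb in KO and 1380.0 in WT, followed by Fn1 at 149.7 CPM per kb in KO and 143 in WT. Below them came Sparc at 57.8 CPM per kb in KO and 32.0 in WT, Spp1 at 54.6 CPM per kb in KO and 44.7 in WT and Ecm1 at 50.1 CPM per kb in KO and 59.3 in WT. Dcn was at 47.7 CPM per kb in KO and 28.8 in WT, close to Bgn at 43.9 CPM per kb in KO and 30.8 in WT. In WT the levels of Ecm1 and Spp1 stood above that of Sparc, while in KO Sparc stood above both. The 10 risers ranged in WT from 0.104 CPM per kb for Ltbp2 to 28.8 for Dcn. Of the 7 matrix genes with the highest levels per length, Dcn alone rose.

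**Figure D4:**
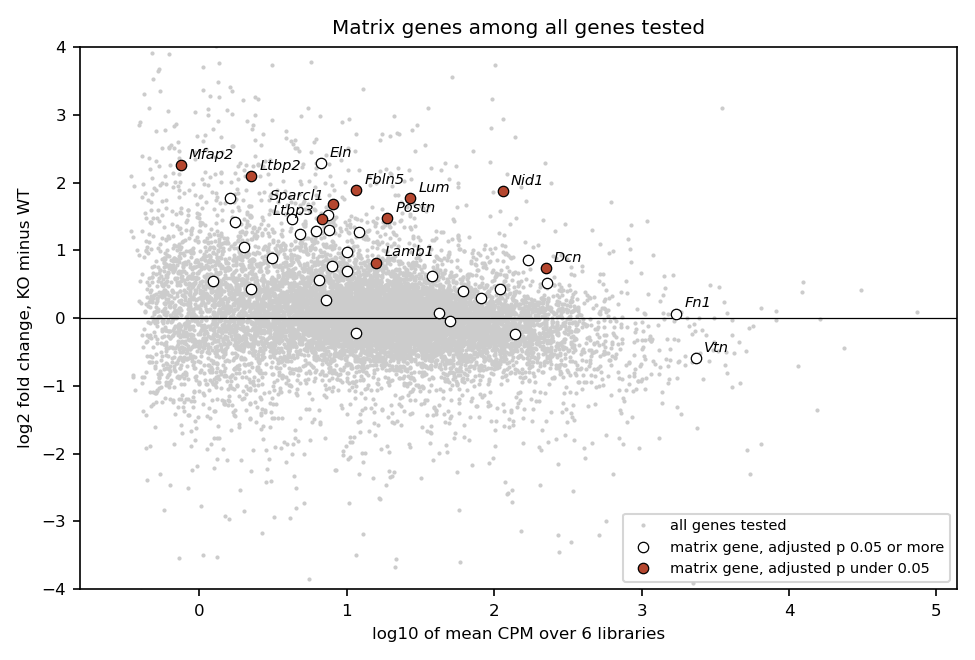
Log2 fold change, KO minus WT, against log10 of the mean CPM over the 6 libraries for all genes tested (grey) and the 40 matrix genes (open and filled circles). The filled genes lie between log2 0.73 (Dcn) and 2.25 (Mfap2), Vtn and Fn1 lie at the right end near or below 0, and 53 genes beyond a log2 of 4 in size are not drawn.

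Ratios between related genes of the same library are free of the scaling factors. Of 12 such pairs, 7 ratios did not overlap between KO and WT. Most pairs set a gene that rose over a relative that did not pass, so this count follows in part from the choice of pairs. The ratios are a description, and no share over all genes stands beside them. The log2 ratio of Nid1 to Nid2 reads was 4.14 ± 0.05 in KO and 2.98 ± 0.59 in WT (SD, n = 3 each). That of Ltbp3 to Ltbp4 was -2.26 ± 0.42 in KO and -3.81 ± 0.90 in WT (SD, n = 3 each), while that of Ltbp2 to Ltbp1 was -1.04 ± 0.27 in KO and -2.54 ± 0.48 in WT (SD, n = 3 each). Fbln5 over Efemp1 was at 0.77 ± 0.18 in KO and -1.35 ± 0.34 in WT (SD, n = 3 each), with Fbln5 below Efemp1 in every WT library and above it in every KO library by read count. The ratios of Efemp2 to Efemp1, Lum to Fmod and Dcn to Bgn were also apart, with the last shifted by only 0.22 on the log2 scale. Sparcl1 over Sparc, Lamb1 over Lamb2, Thbs2 over Thbs1, Emilin2 over Emilin1 and Fbln2 over Fbln1 overlapped. With 3 libraries against 3 the exact two-sided permutation test cannot go below 0.10, which is what each of the 7 gave, or 0.171 after adjustment over the 12 pairs, so no pair passed.

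The genes that receive and anchor this matrix, and those that assemble it, were followed in 3 further lists. Of 21 tested matrix receptors 3 rose (14.3%) and none fell, against 3.36% and 3.58% of all genes, with a median log2 fold change of 0.29. At an unadjusted p under 0.05, 6 were higher and 2 lower, against 25.8% of all genes in either direction. DESeq2 called 5 higher and 1 lower, the syndecan gene Sdc4, and limma-voom 2 higher and none lower. Ddr1, a collagen-activated receptor tyrosine kinase, was at 39.8, 31.3 and 30.8 CPM in KO and 6.96, 2.91 and 5.98 CPM in WT, 6.41-fold higher (log2 2.68 ± 0.31 SE, adjusted p = 0.00674), and it kept its call with each library left out in turn. Its relative Ddr2 was at 6.00 ± 1.40 CPM in KO and 5.40 ± 0.827 CPM in WT (SD, n = 3 each) (adjusted p = 0.724). Itga8, an integrin chain of stellate and smooth muscle cells that binds osteopontin and fibronectin, was 2.51-fold higher (adjusted p = 0.0336). Itgb5, the partner of integrin alpha-v for vitronectin and periostin, was 1.46-fold higher (adjusted p = 0.0428). Itgb5 lost its call in each of the 6 fits that left out a library, reaching 0.164. Itga8 lost it with limma-voom and when KO replicate 1, KO replicate 2, WT replicate 1 or WT replicate 3 was left out, reaching 0.13. Leaving out KO replicate 1, KO replicate 2 or WT replicate 3 left Ddr1 as the only receptor that rose. The common integrin chain Itgb1 was at 253 ± 9.26 CPM in KO and 235 ± 15.7 CPM in WT (SD, n = 3 each) (adjusted p = 0.625).

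Of 21 other basement membrane genes tested, 1 rose (4.76%) and none fell, with a median log2 fold change of 0.25. That share is near the 3.36% of all genes that rose. At an unadjusted p under 0.05, 6 were higher and 2 lower, against 25.8% of all genes in either direction. DESeq2 called 6 higher and limma-voom 2, and neither called one lower. The riser was Col4a5, a type IV collagen chain, at 3.63, 5.06 and 5.21 CPM in KO and 0.890, 0.872 and 1.01 CPM in WT (log2 2.32 ± 0.28 SE, adjusted p = 0.00714). Leaving out KO replicate 2 brought its adjusted p to 0.053 and the count to 0. Leaving out WT replicate 1 brought the count to 2, and using library size alone to 5. In the list of further elastic fibre, proteoglycan and matricellular genes 6 of 28 tested rose (21.4%) and none fell, against 3.36% and 3.58% of all genes, with a median log2 fold change of 0.83. At an unadjusted p under 0.05, 14 were higher and 1 lower, against 25.8% of all genes in either direction. DESeq2 called 12 higher and limma-voom 5, and neither called one lower. Cyr61, a secreted protein of the CCN family, was 2.37-fold higher (adjusted p = 0.0201). Prelp, a proteoglycan of connective tissue, was 1.57-fold higher (adjusted p = 0.026). Esm1, a proteoglycan of endothelial cells, was 4.26-fold higher (adjusted p = 0.0332). Loxl1, a lysyl oxidase needed for elastic fibres, was 3.11-fold higher (adjusted p = 0.0341). Matn2 and Loxl4 were the other two. Each of the 6 lost its call when any KO library or WT replicate 3 was left out.

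Promoter sequence was looked up for the genes that rose together. RefSeq start sites on GRCm38.p6 gave 43 windows of 250 bases before the start for 31 of the 41 genes, and 10 windows for 7 of the 10 risers. The SMAD motif CAGACA, read on both strands, was in 13 of the 43 windows (30.2%), against 17.1% of 32851 windows over all genes, and in 2 of the 10 windows of the risers. The letters TATAAA, read on both strands, were in 8 of the 43 windows (18.6%) against 12.4% of all windows, and the CArG box of serum response factor was in 0 of 43 against 1.47%. Several windows belong to 1 gene and overlap, so they are not separate counts, and a match is a description of the letters only. The 3 windows of risers that held a match are shown 5′ to 3′ on the strand of the gene in lower case, cut where an annotated exon begins, with the match in capitals.
Postn, plus strand, chr3:54360857-54361106: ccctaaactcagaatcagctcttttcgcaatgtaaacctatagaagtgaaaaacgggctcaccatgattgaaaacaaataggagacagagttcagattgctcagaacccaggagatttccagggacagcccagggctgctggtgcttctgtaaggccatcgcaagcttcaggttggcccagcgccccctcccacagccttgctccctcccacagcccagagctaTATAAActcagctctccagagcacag
Mfap2, plus strand, chr4:141010174-141010417: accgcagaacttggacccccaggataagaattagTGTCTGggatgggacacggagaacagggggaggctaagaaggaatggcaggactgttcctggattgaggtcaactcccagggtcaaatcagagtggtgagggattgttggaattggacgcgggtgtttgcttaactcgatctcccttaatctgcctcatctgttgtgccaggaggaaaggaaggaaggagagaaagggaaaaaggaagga
Fbln5, minus strand, chr12:101818485-101818733: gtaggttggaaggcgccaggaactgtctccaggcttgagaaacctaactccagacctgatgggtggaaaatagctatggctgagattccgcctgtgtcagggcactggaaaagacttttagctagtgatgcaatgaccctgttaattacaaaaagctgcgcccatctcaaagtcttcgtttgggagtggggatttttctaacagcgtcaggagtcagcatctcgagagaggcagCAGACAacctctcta
In the Postn window the capitals mark TATAAA, which begins 26 bases before the start. In the Mfap2 window they mark CAGACA read on the other strand, 216 bases before the start. The Fbln5 window belongs to a start site 571 bases inside the gene, with CAGACA 15 bases before it, and no match lay before its outermost start.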

How the data were processed

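The authors deposited whole-number read counts per gene symbol for 6 liver libraries, without normalization. The submitters' processing notes list mm10, STAR 2.5, edgeR 3.20.8, Subread 1.5.3 and featureCounts. The sources used here do not give the annotation, the strand setting or how multi-mapped reads were counted. Totals were 18882220 to 24098512 counts.

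The test was edgeR's quasi-likelihood test (R 4.3.3, edgeR 4.0.16) of KO over WT, with genes kept by filterByExpr (counts of 10, total of 15), TMM factors and robust dispersions. P-values were Benjamini-Hochberg adjusted over 12945 genes. The SE is approximate, the estimate over the square root of F, and the common BCV was 0.232. DESeq2 1.42.0, limma-voom (limma 3.58.1), other factors and filters, and leaving out each library were alternatives. The script was tested on simulated data. Exon lengths, for CPM per kb, came from GENCODE mouse release 21 and promoters from RefSeq. Figures used matplotlib 3.10.9.

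The genes and lists were chosen with earlier results of these data known, and CCN genes were also sought under older names. Values in every library are given for genes that passed, the 5 with the highest mean CPM, and genes whose groups did not overlap at a fold of 2 or more. From each further list up to 4 risers were named. Lrat, Entpd2, Msln, Mylk, Ttr, Apoa1, Asgr1, Ddr2, Itgb1, Clec3b, Gli1, Matn2, Loxl4, Sdc4, genes that overlap the matrix genes, Efemp1 in every library and the promoter windows were chosen after their values were seen. So were Thy1, Myh11, Smtn, Alb, Apob, Cps1, Hnf4a and the named macrophage markers. The 12 ratio pairs were also set with the values known. Libraries were numbered in accession order. Protein sequences were not used here, and some values of other genes are not reported here.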

Additional observations from a re-analysis of the deposited data

How the results depend on the processing

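Of the matrix genes, 10 rose in the fit reported. The same 10 passed with RLE factors, upper-quartile factors (11 in all), library size only (13 in all) and without robust dispersion, 9 of them passed with limma-voom and with a filter of 1 CPM in 3 libraries, and all 10 were among the 16 that passed with no filter on low counts and the 21 that passed with DESeq2. DESeq2 also called 1 matrix gene lower, and 0 were lower under the other settings. Without 1 library the matrix genes that rose numbered 3 to 14, all genes that rose 48 to 504 and all that fell 53 to 475, against 435 and 463 with all libraries. With DESeq2, 924 rose and 1043 fell. With library size only 707 rose and 258 fell, the median of all genes shifted by 0.21 and that of the matrix genes was 1.08 (log2).

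Matrix receptors that rose numbered 3, against 5 with DESeq2, which also called 1 lower, and 1 to 3 without 1 library. For the other basement membrane chains the count was 1, against 5 with library size only, 3 with no filter, 6 with DESeq2, 2 with limma-voom and 0 to 2 without 1 library. For the further elastic fibre, proteoglycan and matricellular genes it was 6, against 12 with DESeq2 and 0 to 7 without 1 library, with 0 to 1 lower. With KO replicate 2 and WT replicate 2 both left out, an alternative chosen after seeing the data, 132 genes rose and 158 fell, with 5 matrix genes, 1 receptor and 1 gene of the last list among the risers. The cause of these differences was not tested.

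Among the named genes, 4 matrix genes that did not pass changed sign. The log2 fold change of Ltbp4 was 0.0138 using upper-quartile factors, 0.20 using library size only, -0.221 to 0.251 with 1 library left out and 0.0712 with both replicates 2 left out. With 1 library left out it was -0.0541 to 0.159 for Fn1, above 0 in 4 of the 6 fits, -0.0851 to 0.312 for Hspg2, above 0 in 3, and 0.116 to 0.834 for Ltbp1. With both replicates 2 left out Ltbp1 was at -0.16. No paired analysis was possible because the labels give no replicate numbers. Counts under about 10 reads per library, as for Mfap2 in WT, limit what the scarcest genes can show.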
